A study of Homo sapiens with 12 samples.

Results

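The genes described here are the functional human genes of the U2, U4, U5 and minor spliceosomal RNAs and of U7, followed through HEK293 cells and the extracellular vesicles (EVs) that those cells release. They were chosen by name from a table of 57773 gene IDs, and pseudogene copies were not included. The list held 10 genes: RNU2-1, RNU4-1, RNU4-2, RNU5A-1, RNU5B-1, RNU11, RNU12, RNU4ATAC, RNU6ATAC and RNU7-1. Of these, 7 had a row under their own ID. RNU11 was read through AL360012.1, a gene model that starts at the same base and covers 131 of its 134 bases. RNU12 was read through Z93241.1, a model of 664 bases that holds all 150 bases of RNU12, so reads beyond RNU12 are counted in it too. RNU2-1 had no row that could stand for it and was not analysed here, which left 9 rows. RNU7-1 and the U2 gene RNU2-2P were listed at 0 in all 12 libraries. Of the 50-base windows in RNU7-1, 92.9% also occur in transcripts of C12orf57, a gene that spans RNU7-1 on the same strand, and no statement on its level is made.

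HEK293 is an established human embryonic kidney cell line, grown here with 10% serum. Every culture was lipofected for 48 h with 4EC1, a construct set named after eGFP, EIF4E, YTHDF1, GBP1 and CD9, which the series title presents as a way to load mRNA into EVs, so all 4 groups carry it and an untransfected group was not analysed here. Cells were kept in normoxia or moved for 24 h to a hypoxia chamber, and RNA was taken from the cells with TRIzol and from EVs with an exoRNeasy midi kit. This gave 4 groups of 3 libraries (cells and EVs, each under normoxia and under hypoxia), made with a stranded total RNA kit for long RNAs. The sources used here do not give the oxygen level in the chamber. The labels do not say whether replicates came from separate cultures, so a p-value here measures the spread of these libraries, which could be technical.

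Spliceosomal RNAs are short noncoding RNAs that form small nuclear ribonucleoproteins (snRNPs), the particles that recognise and remove introns. U2 pairs with the branch point, U4 holds U6 in an inactive pairing until the spliceosome is activated, and the invariant loop of U5 contacts the exon ends. A minor spliceosome removes a rare class of introns with U11, U12, U4atac and U6atac in place of U1, U2, U4 and U6, and it shares U5 with the major one. U7 acts in the processing of replication-dependent histone pre-mRNAs. All of these except the U6 type RNAs carry a short uridine-rich site on which a ring of Sm proteins is built in the cytoplasm before the particle returns to the nucleus (U7 has a variant site and ring).

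The sequences of 6 genes are shown because the results separate them from one another, and because near-identical pairs such as RNU4-1 and RNU4-2 decide how surely reads can be assigned. They were read from the GENCODE 29 transcripts on GRCh38 and are given as DNA letters. Capitals mark the letters ATTTTTG or ATTTTTTG, searched on the transcript strand as an Sm-like uridine-rich run.
RNU4-1: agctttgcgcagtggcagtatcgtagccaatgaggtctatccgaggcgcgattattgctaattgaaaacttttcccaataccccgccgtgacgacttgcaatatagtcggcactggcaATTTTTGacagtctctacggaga
RNU4-2: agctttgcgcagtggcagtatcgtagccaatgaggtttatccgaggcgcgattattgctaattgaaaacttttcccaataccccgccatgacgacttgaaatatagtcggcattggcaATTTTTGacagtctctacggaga
RNU11: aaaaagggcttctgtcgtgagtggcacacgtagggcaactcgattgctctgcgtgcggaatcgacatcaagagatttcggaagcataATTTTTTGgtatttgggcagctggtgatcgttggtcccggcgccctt
RNU12: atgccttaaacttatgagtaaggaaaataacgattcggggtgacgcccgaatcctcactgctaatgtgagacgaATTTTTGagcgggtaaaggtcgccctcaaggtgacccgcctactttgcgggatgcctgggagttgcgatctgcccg
RNU4ATAC: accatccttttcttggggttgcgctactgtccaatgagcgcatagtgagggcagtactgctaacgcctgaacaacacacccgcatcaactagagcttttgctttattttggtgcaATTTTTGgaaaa
RNU6ATAC: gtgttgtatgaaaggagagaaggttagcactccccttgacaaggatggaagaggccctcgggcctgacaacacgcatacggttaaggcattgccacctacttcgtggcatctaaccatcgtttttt
The searched run was found once in each of these genes except RNU6ATAC, where these letters do not occur. It was also found in 105 of 1986 GENCODE transcripts of 110 to 150 bases (5.29%). RNU11 held the form with 6 T and the other 4 genes held the form with 5 T. Positions are counted from 1 at the 5′ end. RNU4-1 and RNU4-2 were 97.2% identical and differed by C37T, G88A, C99A and C113T, with the RNU4-1 base first.

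Assignment of reads to single genes was therefore uneven. No 50-base window of RNU11, RNU12 or RNU4ATAC occurred in another annotated transcript, against 1.09% of the windows of RNU4-2, 13.0% of RNU4-1 and 13.4% of each U5 gene. For RNU6ATAC 44.2% of the windows were shared with 3 copies, so its values are uncertain. On GRCh38, RNU4-1 lies at chr12:120293097-120293237 and RNU4-2 at chr12:120291763-120291903, both on the minus strand. RNU5A-1 and RNU5B-1 lie on the plus strand of chromosome 15, RNU5A-1 inside an intron of PARP16 on the opposite strand. RNU11 is at chr1:28648600-28648733 and RNU12 at chr22:42615244-42615393, both on the plus strand. RNU4ATAC (chr2:121530881-121531007, plus strand) lies in an intron of CLASP1 on the opposite strand and RNU6ATAC is at chr9:134164439-134164564 on the minus strand. Sources used here do not give the strand setting of the counting, so reads of PARP16 or CLASP1 over these genes cannot be told apart from their own.

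Values are in deposited units, a signal per gene that the authors made by dividing the read count of a library by 1 factor. Reads numbered 18059381 to 23400813 in the cell libraries, 5266244 to 7001767 in normoxia EVs and 3259453 to 6129782 in hypoxia EVs. A read was worth 0.512 and 0.527 units on average in normoxia and hypoxia cells, and 2.04 and 1.79 units in normoxia and hypoxia EVs. The HEK293 markers PAX2 and NEFM were present in all libraries (PAX2 at 97.0 units or more). Signal over 351 olfactory receptor genes, taken as a background of silent genes, was 0.509 and 0.706 units per kb in normoxia and hypoxia cells, and 3.00 and 8.50 in the EVs of the same conditions. At that density the rows described here would hold 1.20 units or less in every group, except the longer RNU12 model with 1.99 in normoxia EVs and 5.65 in hypoxia EVs. Together the 9 rows took 0.0219% of reads in cells under normoxia and 0.0253% under hypoxia, and 0.0754% in EVs under normoxia and 0.0602% under hypoxia.

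Within a group the libraries did not scatter independently over these genes. Replicate 3 was the highest of its group for all 8 rows with signal in normoxia cells and again in hypoxia cells, and replicate 1 was the highest for all 8 in normoxia EVs. Results that rest on these libraries are given with and without them below.

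**Figure D1:**
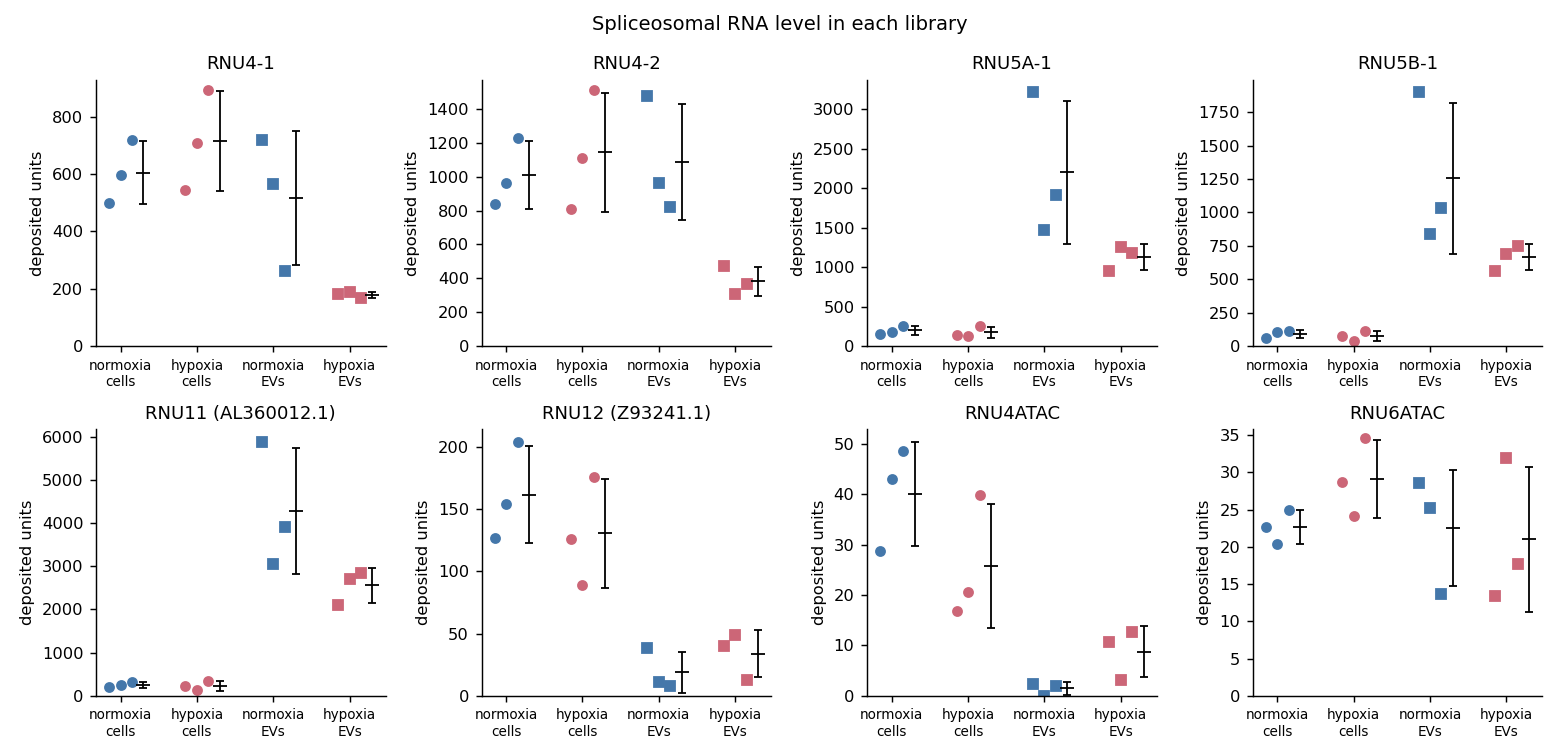
Deposited units of 8 spliceosomal RNAs (1 panel each, linear axis from 0) in each of 12 libraries, with circles for cells, squares for EVs, blue for normoxia and red for hypoxia; the black bar beside each group is its mean ± SD (n = 3). The EV libraries of RNU5A-1, RNU5B-1 and RNU11 all lie above the cell libraries, and those of RNU12 and RNU4ATAC all lie below.

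EVs were first set against cells, which addresses how far the RNA of the vesicles holds that of the cells. Over both conditions the rows that were called lay in 2 opposite sets. RNU5A-1, RNU5B-1 and RNU11 were 8.98 to 14.2 times higher in EVs by their means, and U4, U12 and U4atac were lower. The U4 difference was not alike in the conditions. In normoxia RNU4-2 was at 1086 units in EVs and 1009 in cells, and RNU4-1 at 516 and 605. RNU6ATAC was not called. Of 8 rows tested, 3 were higher and 4 were lower by limma at an adjusted p of 0.05. Among the lower rows, RNU4ATAC passed the filter on low values through its cell libraries. In 5 rows the EV and cell libraries did not overlap. The shares over all 24171 genes tested were 74.9% called (43.1% higher and 31.8% lower) and 41.2% not overlapping, so being called at all was common in this comparison. The median log2 difference was -0.52 over the 8 rows and 0.32 over all genes. Both signs turned with a filter at a mean of 50, to 1.18 over the 6 rows left and -0.41 over all genes, so the medians depend on which low genes are tested.

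RNU11, the U11 RNA that recognises the 5′ splice site of minor introns, had the largest difference of the 8. Its level was 194, 245 and 327 units in cells under normoxia and 219.6, 122 and 337 under hypoxia, and 5887, 3057 and 3909 in EVs under normoxia and 2099, 2718 and 2857 under hypoxia. The lowest EV library thus lay above the highest cell library. The log2 difference was 3.82 (SE 0.20, limma adjusted p = 4.97e-12), with means of 3421 units in EVs and 240.7 in cells.

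RNU5A-1, one of the main U5 genes, behaved in the same direction. Its level was 159, 177 and 258 units in cells under normoxia and 139.5, 123 and 258 under hypoxia, and 3218, 1474 and 1913 in EVs under normoxia and 948, 1258 and 1183 under hypoxia. The groups did not overlap, and the log2 difference was 3.09 (SE 0.20, limma adjusted p = 4.47e-11). RNU5B-1, a U5 gene on the same chromosome, was at 56.9, 103 and 116 units in cells under normoxia and 73.6, 38.6 and 109.6 under hypoxia, and 1901, 836 and 1030.0 in EVs under normoxia and 559.7, 691 and 752 under hypoxia. It rose by 3.50 on the log2 scale (SE 0.24, limma adjusted p = 1.38e-10), again with no overlap.

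U4 RNA, the partner of U6 in the major spliceosome, was lower in EVs on average, but its libraries overlapped. RNU4-2 was at 836, 961 and 1229.8 units in cells under normoxia and 809.7, 1109 and 1512 under hypoxia, and 1475, 962 and 821 in EVs under normoxia and 473, 308 and 366 under hypoxia. RNU4-1 was at 499, 598 and 719 units in cells under normoxia and 546, 707 and 893 under hypoxia, and 721, 566 and 262 in EVs under normoxia and 182, 187 and 166 under hypoxia. For both genes the hypoxia EV libraries lay below all cell libraries, while normoxia EVs overlapped them. The EV minus cell difference over both conditions was -0.74 for RNU4-2 (SE 0.17, limma adjusted p = 0.000555) and -1.15 for RNU4-1 (SE 0.19, limma adjusted p = 2.48e-05). Reads pooled over replicates put the EV to cell ratio of RNU4-2 at 1.04 (95% exact counting interval 0.987 to 1.10) in normoxia and 0.339 (0.313 to 0.367) in hypoxia. The counting interval covers counting error only, because reads carry no molecular identifiers and replicates varied more than that.

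U12 and U4atac, which act beside U11 and in place of U2 and U4 in the minor spliceosome, moved the opposite way from U11. The RNU12 model was at 127, 154 and 204 units in cells under normoxia and 126, 89.1 and 176 under hypoxia, and 38.1, 10.8 and 7.82 in EVs under normoxia and 40.1, 48.7 and 12.6 under hypoxia. Its EV libraries all lay below the cell libraries, with a log2 difference of -2.69 (SE 0.38, limma adjusted p = 3.02e-06). RNU4ATAC was at 28.7, 43.0 and 48.6 units in cells under normoxia and 16.8, 20.6 and 39.9 under hypoxia, and 2.38, 0 and 1.95 in EVs under normoxia and 10.7, 3.04 and 12.6 under hypoxia. Its groups did not overlap and the log2 difference was -2.88 (SE 0.53, limma adjusted p = 7.08e-05). RNU4ATAC had means of 5.11 units in EVs and 32.9 in cells, and passed the filter on low values through its cell libraries. It was too low to be tested within EVs. The filter thus favoured a lower EV value for RNU4ATAC.

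The EV values of these low RNAs rest on few reads. RNU4ATAC had 2 reads in all normoxia EVs against 236 in normoxia cells, a cell to EV ratio of 29.8 on the deposited scale with an exact counting interval of 8.17 to 248. In hypoxia it had 15 reads in EVs and 147 in cells, a cell to EV ratio of 3.10 (1.82 to 5.68). The RNU12 model had 26 and 67 EV reads in normoxia and hypoxia, and its hypoxia EV mean of 33.8 units stands beside 5.65 units expected from the olfactory receptor background over its length.

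RNU6ATAC, the counterpart of U6 in the minor spliceosome, was not called. Its level was 22.6, 20.4 and 25.0 units in cells under normoxia and 28.7, 24.2 and 34.6 under hypoxia, and 28.5, 25.2 and 13.7 in EVs under normoxia and 13.4, 32.0 and 17.7 under hypoxia. The groups overlapped throughout, and the log2 difference was -0.30 with a 95% interval of -1.09 to 0.49 (limma adjusted p = 0.479).

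**Figure D2:**
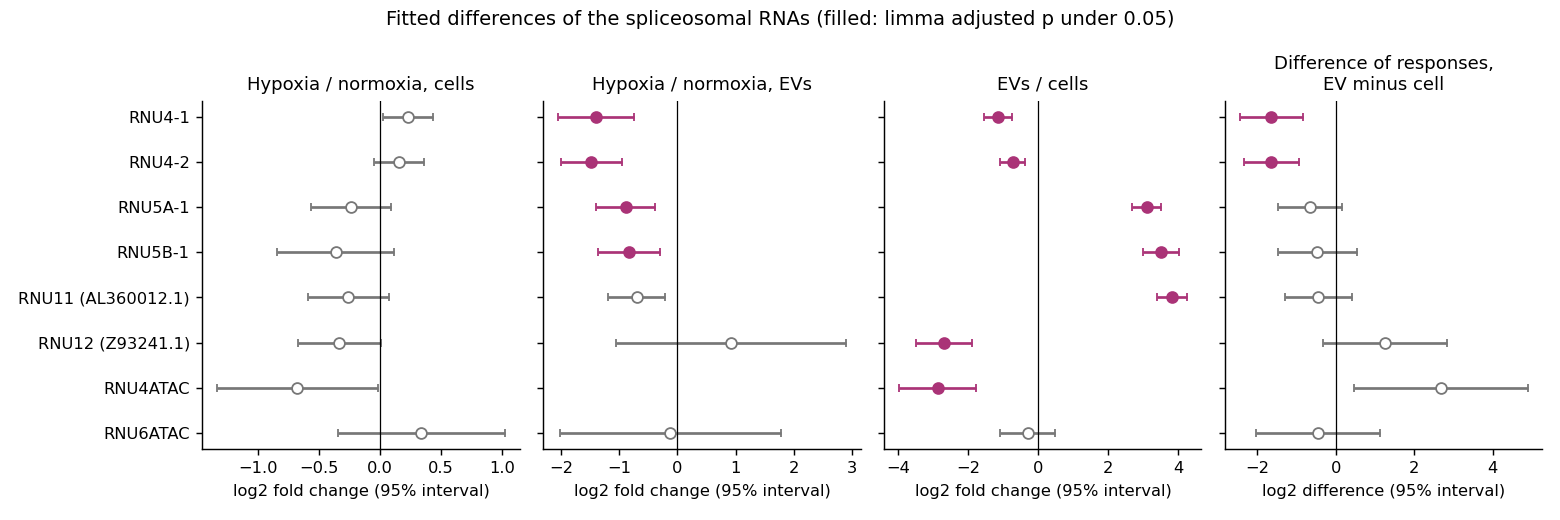
Log2 fold changes with 95% intervals from limma for the 8 rows (vertical) in 3 comparisons and, at the right, the EV minus cell difference of the hypoxia responses; filled points passed an adjusted p of 0.05 and each panel has its own scale. RNU4ATAC has no point for hypoxia in EVs, where its mean was below 10 units and it was not tested. In the panel of EVs over cells RNU11, RNU5B-1 and RNU5A-1 stand at 3.82, 3.50 and 3.09, and RNU4ATAC and RNU12 at -2.88 and -2.69.

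Ratios within a library do not depend on how libraries were scaled to one another, so they were used to describe the separation again. They do not remove the difference of extraction between cells and EVs. Per kb of gene, RNU5A-1 stood at 0.134 to 0.255 of RNU4-2 in the 6 cell libraries and at 1.86 to 4.97 times RNU4-2 in the 6 EV libraries. The RNU11 model per kb stood at 0.118 to 0.292 of RNU4-2 in cells and at 3.42 to 9.51 times RNU4-2 in EVs. RNU4-2 thus stood above RNU5A-1 and RNU11 per kb in every cell library and below them in every EV library. The ratio of the RNU11 model to the RNU12 model, the RNAs that form a joint particle in the minor spliceosome, ran from 1.36 to 1.91 in cells and from 52.4 to 500 in EVs. The RNU12 count holds reads beyond RNU12, so the ratio is that of the models and not of the RNAs.

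**Figure D3:**
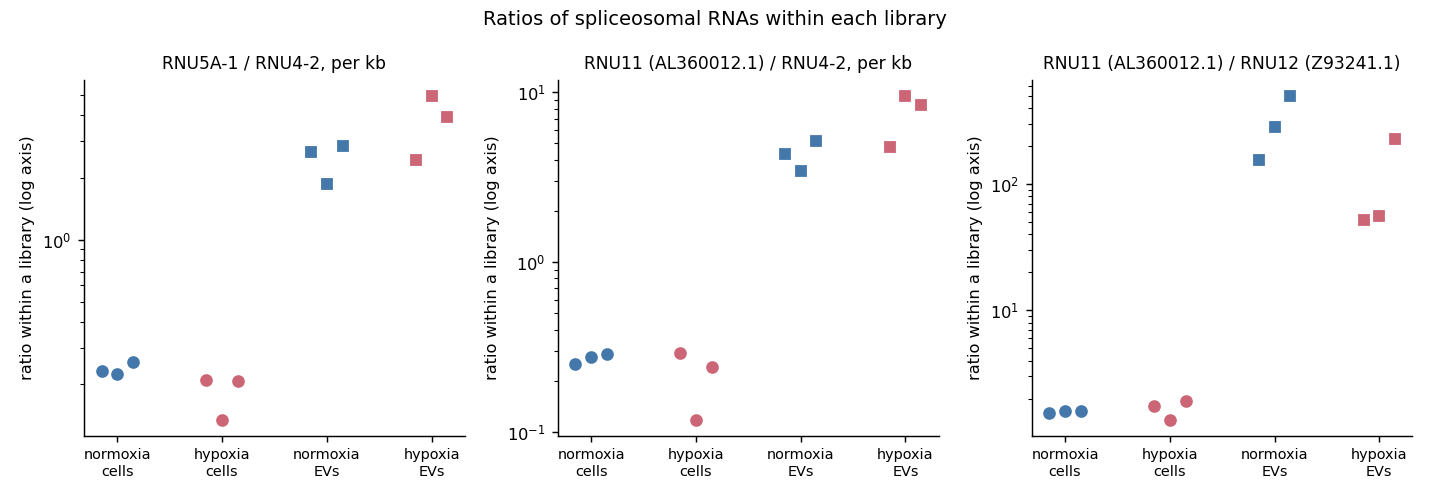
Ratio of 2 spliceosomal RNAs within each library (log axis), with circles for cells, squares for EVs, blue for normoxia and red for hypoxia. All EV libraries lie above all cell libraries in each panel, at 1.86 to 4.97 against 0.134 to 0.255 for RNU5A-1 over RNU4-2 per kb.

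RNU4-1 and RNU4-2, and likewise RNU5A-1 and RNU5B-1, kept closer proportions. RNU4-1 was 0.585 to 0.674 of RNU4-2 in cells and 0.319 to 0.609 of it in EVs. RNU5B-1 was 0.315 to 0.579 of RNU5A-1 in cells and 0.538 to 0.635 of it in EVs. The pairs share sequence, and the sources used here do not say how reads that fit both were counted. Per kb in normoxia cells the order of the rows was RNU4-2 (7156 units per kb), RNU4-1 (4292), RNU11 (1948), RNU5A-1 (1705), RNU5B-1 (791), RNU4ATAC (316), RNU12 (244) and RNU6ATAC (180.0). Per kb in normoxia EVs it was RNU11 (32707), RNU5A-1 (18982), RNU5B-1 (10824), RNU4-2 (7702), RNU4-1 (3660.5), RNU6ATAC (178), RNU12 (28.5) and RNU4ATAC (11.4). These orders are of group means. The RNU12 values are per kb of its 664-base model and not of the 150 bases of RNU12, so its place may not be that of the RNA. For neighbours such as RNU11 and RNU5A-1 in normoxia cells the libraries overlapped between the rows, while within each of the 3 libraries RNU11 was the higher of the pair per kb (0.250 against 0.230, 0.274 against 0.224 and 0.286 against 0.255 of RNU4-2).

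The cellular response to hypoxia was examined next. None of the 8 rows passed limma's threshold in cells, in either direction, while 30.4% of all 17260 genes tested were called (8.01% higher and 22.4% lower). At an unadjusted p of 0.05, 1 row was higher and 1 was lower, edgeR called 1 higher and DESeq2 called 0. All 8 rows overlapped between normoxia and hypoxia cells, while 40.3% of all genes did not. The median log2 fold change was -0.25 over the rows and -0.07 over all genes.

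The row that was higher at an unadjusted p of 0.05 was RNU4-1, with 605 ± 110.2 units in normoxia cells and 715 ± 174 in hypoxia cells (SD, n = 3), a log2 fold change of 0.23 (limma adjusted p = 0.0815, 95% interval 0.03 to 0.43). The row that was lower was RNU4ATAC, with 40.1 ± 10.3 and 25.7 ± 12.4 units (SD, n = 3) and a log2 fold change of -0.68 (limma adjusted p = 0.114, 95% interval -1.34 to -0.02). The intervals of the other 6 rows included 0: 0.15 for RNU4-2 (-0.05 to 0.36), -0.24 for RNU5A-1 (-0.56 to 0.09), -0.37 for RNU5B-1 (-0.84 to 0.11), -0.26 for RNU11 (-0.60 to 0.07), -0.34 for RNU12 (-0.68 to 0.01) and 0.34 for RNU6ATAC (-0.35 to 1.03). Without hypoxia cell replicate 3, the library that was highest for every row, 5 rows were called lower by limma: RNU5A-1, RNU5B-1, RNU11, RNU12 and RNU4ATAC. Without hypoxia cell replicate 1 or without normoxia cell replicate 3, the 2 U4 genes were called higher. Without normoxia cell replicate 1, RNU5B-1 and RNU12 were called lower. Counts of calls in cells thus changed with single libraries, in both directions.

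In EVs hypoxia went with lower U4 and U5 RNA. Of 7 rows tested, 4 fell and none rose by limma, against 12.3% of 27904 genes called (6.62% lower and 5.68% higher). Libraries did not overlap between the EV groups for 5 of the 7, against 37.9% of all genes. The median log2 fold change was -0.83 over the rows and 0.60 over all genes on the deposited scale (-0.89 and -0.15 with a filter at 50). In bulk libraries such as these, fewer vesicles of a kind and less of an RNA per vesicle cannot be told apart.

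RNU4-2 fell from 1086 ± 344 units in normoxia EVs to 382 ± 83.9 in hypoxia EVs (SD, n = 3), a log2 fold change of -1.48 (SE 0.25, limma adjusted p = 0.00514). RNU4-1 fell from 516 ± 233 to 178 ± 10.8 units (SD, n = 3), a log2 fold change of -1.41 (SE 0.32, limma adjusted p = 0.0163). For both genes the highest hypoxia EV library lay below the lowest normoxia EV library, and the 3 hypoxia libraries of RNU4-1 were close together. The call of RNU4-2 ended without normoxia EV replicate 2 (limma adjusted p = 0.105). The call of RNU4-1 ended without normoxia EV replicate 1 (0.058), normoxia EV replicate 2 (0.108) or hypoxia EV replicate 3 (0.0818). Both held in all 11 other settings tried, with log2 fold changes of -1.67 to -0.92 for RNU4-2 and -1.64 to -0.84 for RNU4-1.

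RNU5A-1 and RNU5B-1 also fell, and whether they fell less than U4 was not tested. RNU5A-1 went from 2202 ± 907 to 1129.6 ± 161 units (SD, n = 3), a log2 fold change of -0.89 (SE 0.25, limma adjusted p = 0.0282). RNU5B-1 went from 1256 ± 567 to 667 ± 98.1 units (SD, n = 3), a log2 fold change of -0.83 (SE 0.26, limma adjusted p = 0.0406). Normoxia EV replicate 1 was the highest library of both, and without it the changes were -0.58 (limma adjusted p = 0.116) and -0.49 (limma adjusted p = 0.193). Each U5 call ended in 5 of 6 fits that left out a library, normoxia EV replicate 3 being the exception. With all libraries scaled to the same total the changes were -0.33 (limma adjusted p = 0.219) and -0.26 (limma adjusted p = 0.365). That scaling moved the median of all genes by 0.53 to 1.13. The RNU5B-1 call also ended with a pseudocount of 0.5 (limma adjusted p = 0.0528) and in the fit of all 12 libraries (limma adjusted p = 0.0629). RNU11 was lower at -0.70 (SE 0.24) but missed the threshold with a limma adjusted p of 0.0524, its libraries not overlapping. It passed in 7 of 11 other settings, and its adjusted p ran from 0.00584 to 0.566 over them.

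The remaining minor spliceosomal RNAs were not called in either direction. The RNU12 model was at 18.9 ± 16.7 and 33.8 ± 18.9 units (SD, n = 3) in normoxia and hypoxia EVs, with a log2 fold change of 0.92 and a 95% interval of -1.06 to 2.90 (limma adjusted p = 0.482). RNU6ATAC was at 22.5 ± 7.80 and 21.0 ± 9.75 units (SD, n = 3), with a log2 fold change of -0.12 and an interval of -2.02 to 1.78 (limma adjusted p = 0.93). Its sign turned under equal totals, to 0.42. Both intervals are wide, and neither shows that the level stayed the same. RNU4ATAC, at 2.38, 0 and 1.95 units in normoxia EVs and 10.7, 3.04 and 12.6 in hypoxia EVs, was too low to be tested and did not overlap.

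Other measures moved between the EV groups too. The olfactory receptor background was 1.49 to 4.98 units per kb in normoxia EVs and 8.04 to 9.06 in hypoxia EVs. Of the 6 marker RNAs of nuclear, nucleolar and cytosolic origin with a row, MALAT1 went from 28046 ± 8254 to 12323 ± 3816 units, RMRP from 65989 ± 17175 to 27619.6 ± 3785 and SNORD3A from 11703 ± 9023 to 3802 ± 1779.6 (SD, n = 3). RNY1 went from 202 ± 82.9 to 101 ± 33.4, RNY3 from 89.7 ± 25.6 to 52.5 ± 41.6 and NEAT1 from 388 ± 49.9 to 324 ± 8.05 (SD, n = 3). All 6 means were lower in hypoxia EVs. Markers of blood (HBA1, HBA2 and HBB) stayed at 32.0 units or less in every library, and of the liver markers ALB was at 12.2 or less. In normoxia and hypoxia EVs HBA1 was at 11.2 ± 13.7 and 17.4 ± 16.2 units, against 2.51 and 7.10 from the olfactory receptor background. HBA2 was at 7.64 ± 7.56 and 18.1 ± 8.62, against 2.48 and 7.03, and HBB at 7.17 ± 5.08 and 9.66 ± 9.01, against 3.92 and 11.1 (SD, n = 3). APOB was at 56.9 ± 51.2 units in normoxia EVs and 184 ± 73.4 in hypoxia EVs, and TF at 46.6 ± 12.3 and 203 ± 25.4 (SD, n = 3). Over the length of APOB the olfactory receptor background would give 44.5 units in normoxia EVs and 126 in hypoxia EVs. Over that of TF it would give 78.7 and 223, above the TF means, so TF is not read as liver RNA. The APOB, HBA1 and HBA2 means lay above that background in both EV groups. Whether they reflect RNA of another source was not tested. The part of these measures in the fall of U4 and U5 was not tested.

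Whether the response to hypoxia differed between EVs and cells was tested as an interaction over all 12 libraries. Of 8 rows, 2 had a lower response in EVs than in cells and none a higher one, against 2.31% of 24171 genes called (1.87% lower and 0.443% higher). These were the 2 U4 genes. The difference was -1.63 for RNU4-2 (SE 0.33, limma adjusted p = 0.0214) and -1.64 for RNU4-1 (SE 0.39, limma adjusted p = 0.0352). The median difference was -0.46 over the rows and 0.23 over all genes (-0.56 and -0.16 with a filter at 50).

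The 2 U4 results rested on the full set of libraries to different degrees. The RNU4-2 call held in 6 of 12 fits that left out a library, where the limma adjusted p ran from 0.00131 to 0.0892. Leaving out replicate 1 or 2 of the normoxia cells, replicate 2 or 3 of the hypoxia cells, or replicate 2 or 3 of the hypoxia EVs ended it. The RNU4-1 call held in 1 of 12, without normoxia EV replicate 3, and its adjusted p ran from 0.000141 to 0.127. In those fits the difference stayed between -1.86 and -1.39 for RNU4-2 and between -2.06 and -1.33 for RNU4-1. Both calls also ended when no filter on low values was used (limma adjusted p = 0.0622 and 0.0823).

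For the other rows the difference of responses was not called. It was -0.66 for RNU5A-1 (95% interval -1.48 to 0.16), -0.46 for RNU5B-1 (-1.47 to 0.54), -0.44 for RNU11 (-1.29 to 0.40), 1.26 for RNU12 (-0.32 to 2.84) and -0.46 for RNU6ATAC (-2.04 to 1.12). The falls of RNU5A-1 and RNU5B-1 in EVs are thus not shown to differ from the responses in cells. RNU4ATAC had the largest positive value, 2.69 (0.47 to 4.90, limma adjusted p = 0.16), and this rests on the 2 reads of normoxia EVs. Without normoxia EV replicate 3 it was 2.91 (limma adjusted p = 0.047).

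Other genes of the same RNA families were set beside these. RNU5D-1, RNU5E-1 and RNU5F-1 are further U5 genes. RNU5E-1 was at 116, 104 and 156 units in cells under normoxia and 68.7, 101 and 125 under hypoxia, and 2878, 1277 and 1464 in EVs under normoxia and 596, 759.7 and 774 under hypoxia. It was higher in EVs by 3.35 (SE 0.19, limma adjusted p = 1.16e-11) with no overlap. RNU5D-1 was higher by 2.34 (limma adjusted p = 6.72e-09) and RNU5F-1 by 1.22 (limma adjusted p = 0.000287). All 3 fell in hypoxia EVs, RNU5E-1 by 1.31, RNU5D-1 by 1.27 and RNU5F-1 by 1.73 on the log2 scale (limma adjusted p = 0.0112, 0.0148 and 0.0139), and these 3 calls held in all 12 settings that kept every library. These comparisons share the EV libraries with each other and with those of RNU5A-1 and RNU5B-1, so the agreement of signs is given as values only. Of 5 further snRNA genes tested in EVs against cells, U5 and U6 together, 3 were higher, against 43.1% of all genes. In hypoxia EVs 3 of 5 were lower, against 6.62% of all genes. The difference of responses was -1.90 for RNU5F-1 (limma adjusted p = 0.0551, past the threshold in 5 of 11 settings), -0.95 for RNU5E-1 (limma adjusted p = 0.168, past it in 1 of 11) and -0.87 for RNU5D-1 (limma adjusted p = 0.24, past it in none). In cells none of the 3 was called, and RNU5D-1 had the smallest p of them (-0.41, limma adjusted p = 0.102).

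U2 could be followed only through copies. RNU2-59P, a copy 95.3% identical to RNU2-1, was at 1266, 1405 and 1539 units in cells under normoxia and 1079.5, 1066 and 1384 under hypoxia, and 190.3, 218 and 91.9 in EVs under normoxia and 142, 187 and 108 under hypoxia. Its EV libraries lay far below its cell libraries, with a log2 difference of -3.09 (SE 0.18, limma adjusted p = 1.82e-11). Hypoxia changed it by -0.26 in cells (limma adjusted p = 0.00518) and by -0.13 in EVs (limma adjusted p = 0.806), where its sign turned with the scaling (up to 0.43). Every 50-base window of RNU2-1 occurs in another annotated transcript, so reads of RNU2-1 may be counted in copies and the values of copies are uncertain. RNU2-59P was not among the transcripts that share such a window. Whether its reads come from RNU2-1 was not tested. Of 394 listed copies of all these families 7 passed the filter on low values in the fit of all libraries, 5 of U2 and 2 of U5. In EVs against cells 2 of the 7 were higher and 5 lower, against 43.1% and 31.8% of all genes. The U2 copies RNU2-48P, RNU2-6P, RNU2-61P and RNU2-3P had log2 differences of -3.31, -2.15, -1.61 and -2.14 over both conditions. RNU2-48P, RNU2-61P and RNU2-3P were too low to be tested within EVs and passed the filter through their cell libraries. The filter thus favoured a lower EV value for them, and their differences are no support for that of RNU2-59P. By its means RNU2-3P was lower in EVs under normoxia only. It was at 27.5 units in cells and 0.601 in EVs under normoxia, and at 9.75 and 13.7 under hypoxia. Its normoxia EV libraries held 0, 1.80 and 0 units. The U5 copies RNU5A-8P and RNU5E-4P were higher in EVs, by 3.94 and 2.74, and fell in hypoxia EVs by 1.13 and 1.28 on the log2 scale (limma adjusted p = 0.0244 and 0.0437), calls that held in 10 and 8 of 12 settings. In hypoxia EVs 2 of 4 copies tested were lower, against 6.62% of all genes. In hypoxia cells 3 of 7 copies tested were lower, against 22.4% of all genes. They were RNU2-59P, RNU2-3P (-1.41, limma adjusted p = 0.0147) and RNU5E-4P (-1.05, limma adjusted p = 0.0269). RNU2-59P and RNU5E-4P were called in 7 of 12 and 7 of 11 settings. Of the U6 genes, RNU6-1 was lower in hypoxia cells (6.99 ± 3.36 against 27.7 ± 9.23 units, SD, n = 3), with a log2 fold change of -1.87 (limma adjusted p = 0.00139). For hypoxia in cells RNU6-2, RNU6-8 and RNU6-9 were called in none of the settings that kept every library (-0.35 to -0.20, -0.93 to -0.72 and -0.40 to -0.25). In hypoxia EVs RNU6-2 (-1.44 to -0.70) and RNU6-9 (-1.63 to -0.86) passed in 1 and 2 of 12 settings. In EVs against cells neither RNU6-2 nor RNU6-9 passed in any of 11 settings (-0.11 to 0.61 and -0.08 to 0.64). Of 7 further snRNA genes tested in cells, U5 and U6 together, 1 was lower, against 22.4% of all genes. Sources used here do not say how reads that fit more than 1 U6 gene were counted.

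**Figure D4:**
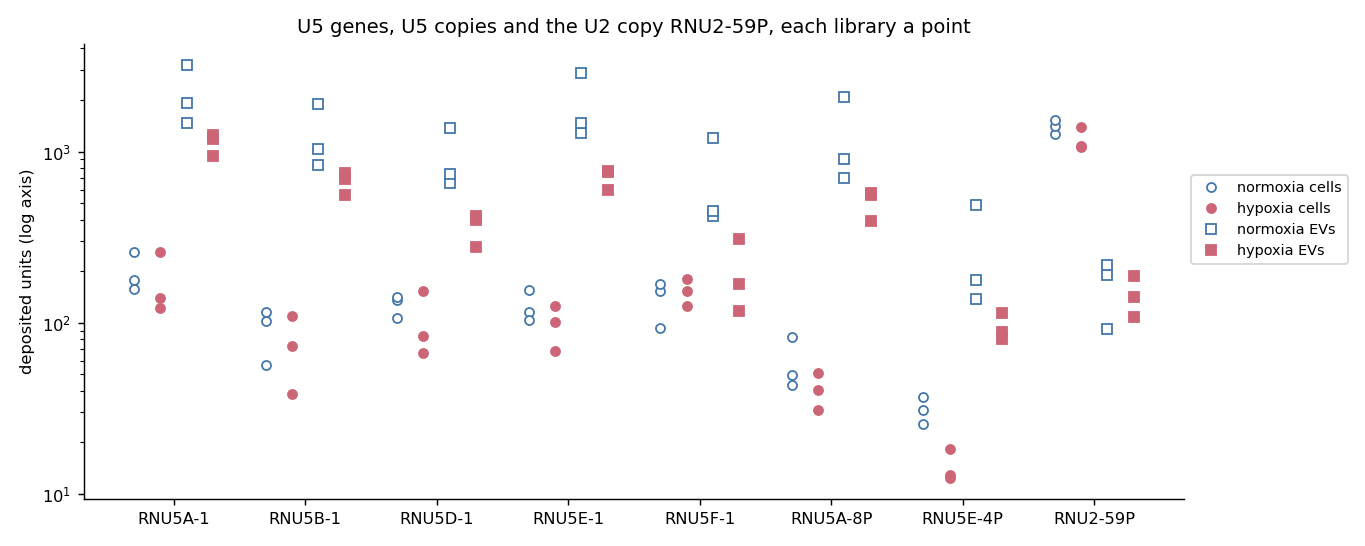
Deposited units (log axis) of the U5 genes, 2 U5 copies and the U2 copy RNU2-59P, with a point for each of 12 libraries; circles are cells, squares are EVs, open symbols normoxia and filled symbols hypoxia. RNU5A-1, RNU5B-1, RNU5D-1, RNU5E-1, RNU5A-8P and RNU5E-4P have all EV libraries above all cell libraries, RNU5F-1 overlaps, and RNU2-59P lies at 1066 to 1539 in cells and 91.9 to 218 in EVs.

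Genes that encode the proteins of these particles, or that make and move the RNAs, formed 9 lists of 110 genes in all, and all were tested. In EVs against cells 16 were higher and 73 lower (median -1.06, against 0.32 for all genes). In hypoxia cells 1 was higher and 72 lower (median -0.28), and in hypoxia EVs none was higher and 29 were lower (median -0.57). Among all genes tested, 31.8% were lower in EVs, 22.4% in hypoxia cells and 6.62% in hypoxia EVs, and the counts of each list below are to be read against these shares. Most of these mRNAs were thus lower in EVs, unlike RNU5A-1, RNU5B-1 and RNU11. Scaling changed the hypoxia counts: with equal totals 2 were higher and 45 lower in hypoxia cells (median -0.15), and 1 was higher and 1 lower in hypoxia EVs (median -0.0033). In the fit of all 12 libraries none was called in hypoxia cells and 63 were lower in hypoxia EVs. Counts lower in hypoxia EVs were 6 with equal totals without the 10 highest genes and 49 with TMM, so the falls of protein genes in hypoxia EVs given below are stated on the deposited scale.

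The Sm core proteins form the ring on the Sm site. Of the 7, 6 were lower in EVs, all 7 were lower in hypoxia cells and 1 was lower in hypoxia EVs. SNRPF, SNRPE and SNRPB were lower in EVs by -2.37, -2.15 and -2.05 (limma adjusted p = 8.46e-13, 3.59e-11 and 2.05e-10). In hypoxia cells SNRPE was at 856 ± 22.2 units against 1228 ± 57.1 (SD, n = 3), a log2 fold change of -0.52 (limma adjusted p = 1.67e-08), with SNRPD1 at -0.41 and SNRPF at -0.45. SNRPD2 was the 1 that fell in hypoxia EVs (-0.74, limma adjusted p = 0.0296). Of 20 genes for snRNP assembly and transport, 15 were lower in EVs, 16 were lower in hypoxia cells and 3 were lower in hypoxia EVs. GEMIN5, the SMN complex subunit that binds snRNAs, fell in hypoxia cells from 1768 ± 89.1 to 1026 ± 33.0 units (SD, n = 3), a log2 fold change of -0.78 (limma adjusted p = 1.85e-15). CLNS1A and PRMT5, which act in the methylation of Sm proteins, fell by 0.55 and 0.62 on the log2 scale (limma adjusted p = 1.44e-10 and 3.87e-09). XPO1, the exporter of new snRNAs, was lower in EVs by -3.13 (limma adjusted p = 3.23e-13), followed by NCBP1 and WDR77 at -2.23 and -2.49. In hypoxia EVs TGS1, which makes the trimethyl cap, CLNS1A and GEMIN5 fell by 0.99, 0.92 and 0.89 on the log2 scale (limma adjusted p = 0.029, 0.0323 and 0.0468).

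Of 12 U2 proteins, 2 were higher and 9 lower in EVs, 11 were lower in hypoxia cells and 5 were lower in hypoxia EVs. SF3B1, which holds the branch point with U2, was lower in EVs by -2.47 (limma adjusted p = 6.85e-12) and in hypoxia EVs by -0.98 (limma adjusted p = 0.0204). SF3B3 and SNRPB2 were lower in EVs by -2.23 and -2.40, SF3A3, SF3A1 and SF3B3 in hypoxia cells by -0.46, -0.37 and -0.36, and SF3A2 and SF3B3 in hypoxia EVs by -1.01 and -0.92. Of 13 proteins of U4/U6 and the LSM ring of U6, 1 was higher and 9 lower in EVs, 11 were lower in hypoxia cells and 6 were lower in hypoxia EVs. PRPF31 and PRPF3, which bind the U4/U6 pair, fell in hypoxia EVs by 0.98 and 0.85 on the log2 scale (limma adjusted p = 0.0154 and 0.0235), as did SART3 by 0.75. SNU13, which binds the U4 5′ stem-loop, fell in hypoxia cells by 0.56 (limma adjusted p = 7.49e-09), with PRPF4 and LSM5 at -0.37 and -0.44. LSM5, LSM3 and PPIH were lower in EVs by -1.72, -1.75 and -1.44.

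Of 11 U5 and tri-snRNP proteins, 4 were higher and 6 lower in EVs, 9 were lower in hypoxia cells and 5 were lower in hypoxia EVs. SART1 was at 3873 units in EVs against 1284 in cells (1.53, limma adjusted p = 2.78e-10), SNRNP27 was higher by 1.42 (limma adjusted p = 3.75e-10) and SNRNP40 lower by -1.67 (limma adjusted p = 2.16e-09). PRPF8, the large core protein that holds U5, EFTUD2 and SNRNP200 fell in hypoxia cells by 0.29, 0.34 and 0.27 on the log2 scale (limma adjusted p = 3.8e-06, 5.86e-06 and 1.73e-05). SNRNP27, SART1 and USP39 fell in hypoxia EVs by 1.03, 0.75 and 0.74. Of 13 minor spliceosome proteins, 4 were higher and 5 lower in EVs, 4 were lower in hypoxia cells and 2 were lower in hypoxia EVs. RNPC3, which bridges U11 and U12, was lower in EVs by -1.92 (limma adjusted p = 4.1e-09) and SNRNP48, a U11 protein, by -1.42 (limma adjusted p = 1.21e-07). ZRSR2, which recognises the 3′ splice site of minor introns, was higher in EVs by 1.49 (limma adjusted p = 5.51e-10) and fell in hypoxia EVs by 0.95 on the log2 scale (limma adjusted p = 0.0166), as did ZCRB1 by 0.78 (limma adjusted p = 0.0445). ARMC7, SCNM1 and SNRNP48 fell in hypoxia cells by 0.68, 0.38 and 0.32.

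Of 11 genes of snRNA transcription, 2 were higher and 6 lower in EVs, 1 was higher and 2 lower in hypoxia cells and 3 were lower in hypoxia EVs. SNAPC1, a subunit of the complex that binds snRNA promoters, was the 1 that rose in hypoxia cells, from 287 ± 7.51 to 377 ± 17.0 units (SD, n = 3; 0.39, limma adjusted p = 0.00186). In hypoxia EVs it fell from 228 ± 12.6 to 105 ± 40.1 units (SD, n = 3; -1.17, limma adjusted p = 0.0379), with SNAPC4 and SNAPC5 at -0.97 and -0.86. Over all 9 lists the difference of responses passed for 3 of 110 genes (2.73%), all lower in EVs on the deposited scale. Among all genes tested 2.31% were called and 1.87% were lower, so the count is near that share. The genes were SNAPC1 (-1.57, limma adjusted p = 0.0214), SNRNP27 (-0.97, limma adjusted p = 0.0247) and ZRSR2 (-0.97, limma adjusted p = 0.034). With equal totals none was lower and 2 were higher, and none was called without a filter. TMM, edgeR and DESeq2 gave 17, 15 and 15 lower, and DESeq2 also gave 1 higher. ICE1 and ICE2 fell in hypoxia cells by 0.27 and 0.28, and SNAPC3, POU2F1 and ICE1 were lower in EVs by -2.95, -1.84 and -1.30. Of 14 subunits of Integrator, which cuts the 3′ end of new snRNAs, 12 were lower in EVs, 7 were lower in hypoxia cells and 3 were lower in hypoxia EVs. INTS7, INTS13 and INTS2 were lower in EVs by -1.95, -1.86 and -2.51, INTS3, INTS4 and INTS13 fell in hypoxia cells by 0.49, 0.50 and 0.31, and INTS11, the subunit that cuts, INTS1 and INTS13 fell in hypoxia EVs by 0.81, 0.75 and 0.81. Of 9 genes of the U7 particle and histone pre-mRNA processing, 3 were higher and 5 lower in EVs, 5 were lower in hypoxia cells and 1 was lower in hypoxia EVs. That 1 was SLBP, which binds the histone stem-loop (-1.01, limma adjusted p = 0.0188). CPSF3, the cutting enzyme, was lower by -1.94 in EVs and -0.48 in hypoxia cells, CPSF2 by -2.52 and -0.29, and CSTF2 by -1.69 and -0.49.

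Genes with the pattern most like that of a row were found by Pearson correlation of log2(value + 1) over the 12 libraries, among 10750 genes with a mean of at least 100. These are descriptions, because the points share libraries and fall into the same 4 groups. For RNU5A-1 they were RNA5S9, a gene of 5S ribosomal RNA (r = 0.996), the copy RNU5A-8P (0.995) and AL360012.1, the RNU11 model (0.994). For RNU5B-1 they were AL360012.1 (r = 0.996), MTRNR2L12 (0.992) and RNA5S9 (0.989). For RNU4-2 they were TLK2 (r = 0.954), CLK4 (0.954) and PRR12 (0.951), all genes of mRNAs. RNU4-2 thus shared none of its 3 named genes with RNU5A-1 or RNU5B-1.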

How the data were processed

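Long-RNA libraries of HEK293 cells and EVs (12, in 4 groups of 3 named by the sample titles) were analysed from 1 deposited table. The deposited signal is a read count per gene divided by 1 factor per library, as read from the values: 100% were whole multiples of a library's step within 0.01. Per the submitters' processing notes, the build was hg38 (also given as GRCh38) and the tools included Bowtie 0.12.2 and DESeq2 1.30.1. Sources used here do not give the counter, its annotation, its strand setting or its handling of multiply mapped reads. IDs were named from GENCODE 29 (52338 of 57773, 90.6%).

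Values were tested as log2(value + 1) by limma-trend (R 4.3.3, limma 3.58.1). Genes whose mean over the fitted libraries was 10 or more were tested, and p-values were adjusted over all of them by Benjamini and Hochberg, at a threshold of 0.05. Fold changes, being of log2(value + 1), understate changes of low genes. Hypoxia was compared within cells and within EVs. EVs against cells and the difference of responses were contrasts over all 12 libraries. The fits were tested on simulated data with known changes. Alternatives were other pseudocounts (0.5 and 5), other filters (a mean of 50, or none), TMM, equal totals, edgeR 4.0.16 and DESeq2 1.42.0 on the recovered reads, a fit of all 12 libraries, the replicate number as a block, and each library left out. Each library counted as a sample, since pairs of 1 group gave a chi-square of 5.27 to 14.8 per degree of freedom on their reads.

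The members, the 9 protein lists (Sm core, U2, U4/U6, U5, minor spliceosome, U7, snRNA transcription, Integrator, and assembly and transport), the copies and the markers were chosen with earlier results of these data known. Of each list up to 3 genes with the smallest p in a comparison are named where they passed, and for 3 members the 3 genes most like them by correlation. RNU11 and RNU12 were read through gene models on the same strand, with the same first base, that cover at least 90% of them. Windows of 50 bases were matched exactly to all other GENCODE transcripts. NEFL, LHX1, RPPH1, RN7SL1 and RN7SL2 were not used here. Some sequences are not reported here.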

Additional observations from a re-analysis of the deposited data

Results flagged for a closer look

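The difference between the responses to hypoxia in EVs and in cells passed the test for both U4 genes, -1.64 for RNU4-1 and -1.63 for RNU4-2 on the log2 scale (limma adjusted p = 0.0352 and 0.0214), so each is listed as a difference between 2 kinds of sample under the same contrast. RNU4-1 went from 605 to 715 units in cells and from 516 to 178 in EVs, and RNU4-2 from 1009 to 1143 and from 1086 to 382. The calls held in 1 and 6 of 12 fits that left out a library, and over those fits the difference ran from -2.06 to -1.33 and from -1.86 to -1.39.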

How the results depend on the processing

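The counts of spliceosomal RNAs called in EVs against cells (3 higher and 4 lower) were the same under every alternative tried except the filter at a mean of 50, where RNU4ATAC was not tested and 3 were lower. In cells the count higher was 1 with a filter at a mean of 50, with equal totals, with edgeR and with the replicate block, 2 with equal totals without the 10 highest genes, and 0 to 2 with a library left out. The count lower in cells was 0 to 5 with a library left out. In EVs the count lower (4) was 2 with equal totals, with or without the 10 highest genes, 3 with a pseudocount of 0.5 and in the fit of all 12 libraries (RNU5B-1 lost), 5 in the other 7 settings (RNU11 added), and 0 to 5 with a library left out. In EVs the count higher was 1 (RNU4ATAC) when all 12 libraries were fitted together. For the difference of responses the count lower was 0 without a filter and 0 to 2 with a library left out, and the count higher was 0 to 1. Signs turned for 9 values that had not been called: in cells RNU4-2 without hypoxia cell replicate 3 (-0.072, and up to 0.38 without another library) and RNU5B-1 and RNU11 without hypoxia cell replicate 2 (0.032 and 0.12, from -0.71 and -0.61 without another); RNU6ATAC in EVs under equal totals (0.42), equal totals without the 10 highest genes (0.29) and without normoxia EV replicate 1 (0.08) or hypoxia EV replicate 1 (0.14, from -0.46 without another); RNU6ATAC in EVs against cells under equal totals without the 10 highest genes (0.081); and the difference of responses of RNU11 under equal totals (0.00). The cause was not tested.

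Same-number correlations were not all above 0.1, and the main fits did not pair libraries by replicate number. With 3 libraries per group these correlations cannot exclude a pairing. With the replicate block 5409 genes were called in hypoxia EVs against 3432 without it and 326 against 559 for the difference of responses. Over all genes, calls in hypoxia EVs (1586 higher and 1846 lower) became 4201 and 188 with equal totals, 2539 and 424 without the 10 highest genes, 1161 and 3255 with TMM, 1026 and 2477 with edgeR, 1552 and 2990 with DESeq2, 5311 in all with a pseudocount of 5 and 8238 when all 12 libraries were fitted. In hypoxia cells (1383 and 3871) they became 2304 and 2043 with equal totals, 2555 and 1842 without the 10 highest genes, 1891 and 2606 with edgeR, 1926 and 2515 with DESeq2, and 84 in all when all 12 libraries were fitted. For the difference of responses (107 and 452) they became 170 and 1785 with TMM, 1664 with edgeR, 2179 with DESeq2, 873 with a filter at 50, 105 without a filter, and 475 and 151 with equal totals and 259 and 357 without the 10 highest genes. In EVs against cells (10414 and 7680) they became 8874 and 9347 with TMM, 12669 and 5908 with equal totals without the 10 highest genes, and 10666 in all with a filter at 50. Equal totals moved the median of all genes by 0.53 in hypoxia EVs. With a library left out, 0 to 6144 genes were called higher and 7 to 3934 lower in hypoxia EVs (the most without normoxia EV replicate 3, the fewest without normoxia EV replicate 2), and 2 to 2280 and 34 to 3158 for the difference of responses. RNU4ATAC and RNU6ATAC could not be fitted with a filter at 50. Depth limits RNU4ATAC, RNU12 and RNU6ATAC in EVs, where single libraries held 0 to 32 reads.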
